A study of Mus musculus with 22 samples.

Results

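The genes described here mark the mural cells of blood vessels, the cells that wrap capillaries and larger vessels from outside, and were followed in bulk RNA sequencing of mouse striatum. The list of 8 genes was given by name and matched to Ensembl identifiers: Abcc9, Pdgfrb, Rgs5, Vtn and Cspg4 for pericytes, and Acta2, Tagln and Myh11 for vascular smooth muscle. They are 8 of the 23119 genes in the count table. The study compared adult male C57BL/6J mice that self-administered oxycodone, an opioid analgesic, at 0.25 mg/kg per infusion for 4 h a day over 14 days, with yoked mice that received saline infusions over the same hours and days. Dorsal striatum gave 5 oxycodone and 5 saline libraries, and ventral striatum gave 6 oxycodone and 6 saline libraries. Bulk tissue was used throughout, and no allele or transgene is named in the labels. Nothing in the labels says whether libraries of a group came from single or pooled mice, so the p-values below measure the spread between these libraries.

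Pericytes sit on the capillary wall within the basement membrane, receive PDGF-B from the endothelium through the receptor PDGFRβ, and are needed for a tight blood-brain barrier. Smooth muscle cells ring the arteries and arterioles and carry the contractile proteins actin, transgelin and smooth muscle myosin heavy chain, whose genes are switched on by serum response factor at CArG boxes. In the brain a continuum of cells joins the capillary pericyte to the arteriolar smooth muscle cell, and most markers are shared to some degree along it.

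Promoter windows of 250 bases before to 50 bases after the start site were found for 5 of the 8 members in the RefSeq table for GRCm38.p6, namely Abcc9, Rgs5, Vtn, Cspg4 and Acta2. Windows are shown for Acta2, whose level was high together with those of Tagln and Myh11 in ventral saline replicate 1, and for Abcc9 and Rgs5, the pericyte pair most closely correlated in ventral striatum. They are written 5′ to 3′ on the gene's own strand. Capitals mark CArG boxes with up to 1 letter other than A or T in the middle (Acta2, 19:34255324-34255623, minus strand), GGGCGG read on the other strand (Abcc9, 6:142702225-142702524, minus strand) and CANNTG (Rgs5, 1:169655251-169655550, plus strand).
Acta2: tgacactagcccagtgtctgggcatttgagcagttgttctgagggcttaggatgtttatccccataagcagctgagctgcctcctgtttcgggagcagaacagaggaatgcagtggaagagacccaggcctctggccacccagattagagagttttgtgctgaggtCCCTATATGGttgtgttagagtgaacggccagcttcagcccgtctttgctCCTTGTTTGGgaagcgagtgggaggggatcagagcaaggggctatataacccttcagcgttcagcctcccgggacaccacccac
Abcc9: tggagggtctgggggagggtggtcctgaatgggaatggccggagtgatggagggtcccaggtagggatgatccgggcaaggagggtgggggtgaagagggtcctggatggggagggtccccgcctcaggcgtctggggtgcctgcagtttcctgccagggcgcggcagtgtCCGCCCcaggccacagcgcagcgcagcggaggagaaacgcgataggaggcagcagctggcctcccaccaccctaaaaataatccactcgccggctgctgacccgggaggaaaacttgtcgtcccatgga
Rgs5: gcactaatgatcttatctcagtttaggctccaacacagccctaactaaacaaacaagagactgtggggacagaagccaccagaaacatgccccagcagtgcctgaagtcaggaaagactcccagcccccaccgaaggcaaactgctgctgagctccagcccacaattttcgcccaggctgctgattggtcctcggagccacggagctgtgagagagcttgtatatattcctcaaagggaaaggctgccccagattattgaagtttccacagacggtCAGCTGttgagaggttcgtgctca
The Acta2 window held 2 of these relaxed CArG boxes, starting at bases 167 and 217 of the window. Among all 32851 windows of the same length, 9.98% held at least 1 and 0.822% at least 2, on either strand. A box of the strict consensus was in 1.63% of windows and in none of the 5 members'. Both strands were also searched for GGGCGG, which 35.7% of windows held, and for CANNTG, which 72.3% held. These matches describe the letters of the window and are not evidence of binding.

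Library totals ran from 8408829 to 21921963 counts, and every member was counted in all 22 libraries, with 42 (Tagln) to 2707 (Myh11) counts. Levels are given as CPM scaled by TMM factors. Scaled also to exon length, Vtn had the highest level in every group, at 69.8 ± 11.5 CPM per kb in dorsal oxycodone, 55.1 ± 3.20 in dorsal saline, 48.7 ± 10.6 in ventral oxycodone and 49.4 ± 20.1 in ventral saline libraries (SD, n = 5, 5, 6 and 6). In dorsal oxycodone libraries Rgs5 came next with 12.4 ± 1.70 CPM per kb. Pdgfrb (8.29 ± 1.86), Acta2 (8.28 ± 1.06) and Tagln (7.45 ± 1.03) followed without a gap larger than their spread. In dorsal saline libraries Acta2 at 11.8 ± 3.38, Rgs5 at 10.6 ± 2.01 and Pdgfrb at 9.01 ± 1.68 CPM per kb followed Vtn in that order, each differing from the next by less than the larger SD. Ventral oxycodone libraries had the same next members, Acta2 at 9.68 ± 3.18, Rgs5 at 7.21 ± 1.06 and Pdgfrb at 6.72 ± 1.28. Ventral saline libraries were the exception: Acta2, at 33.3 ± 45.9 CPM per kb, differed from Vtn by less than its SD. That mean and SD rested on replicate 1, where Acta2 stood at 127 and Vtn at 72.6 CPM per kb. In replicates 2 to 6 Acta2 had 11.1 to 20.1 CPM per kb and Vtn 32.8 to 77.5, with Vtn the higher in each. The lowest place went to Cspg4 in dorsal oxycodone (3.28 ± 0.446), Abcc9 in dorsal saline (3.61 ± 0.828), Myh11 in ventral oxycodone (3.10 ± 0.420) and Abcc9 in ventral saline libraries (2.78 ± 0.584). Only in ventral saline libraries did the lowest gene differ from the next by more than the larger SD, and by longest transcript Myh11 took the lowest place in dorsal oxycodone libraries.

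The positions of the members on GRCm38 (GENCODE M21) were as follows. Abcc9, which encodes the SUR2 subunit of ATP-sensitive potassium channels (ENSMUSG00000030249), lies on chromosome 6 from 142587862 to 142702315. Pdgfrb, the PDGF-B receptor (ENSMUSG00000024620), lies on chromosome 18 from 61045150 to 61085061. Rgs5, a regulator that shortens G protein signalling (ENSMUSG00000026678), lies on chromosome 1 from 169655501 to 169695813. Vtn, the secreted adhesion protein vitronectin (ENSMUSG00000017344), lies on chromosome 11 from 78499091 to 78502324, and Cspg4, the NG2 proteoglycan that oligodendrocyte precursors also carry (ENSMUSG00000032911), on chromosome 9 from 56865033 to 56899870. Of the smooth muscle genes, Acta2, the smooth muscle α-actin gene (ENSMUSG00000035783), lies on chromosome 19 from 34241090 to 34255590. Tagln, the transgelin gene (ENSMUSG00000032085), lies on chromosome 9 from 45929619 to 45936058, and Myh11, the smooth muscle myosin heavy chain gene (ENSMUSG00000018830), on chromosome 16 from 14194535 to 14291372. All 8 are annotated as protein-coding, and lengths used here are those of their merged annotated exons; whether reads in untranslated exons were counted is not given in the sources used here. Tagln shares 108 exonic bases with Pcsk7 and 1241 with the antisense gene Gm48529, both on the opposite strand, and Abcc9 shares 158 with the antisense gene 5330439B14Rik. The library kit keeps strand, but the strand setting of the counting is not given in the sources used here, so reads from these overlaps cannot be assigned with certainty. Actin genes resemble each other closely in coding sequence and the treatment of multiply mapping reads is also not given, which leaves the Acta2 level uncertain to that extent.

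Ventral libraries that stand apart affect several results below. Ventral saline replicate 1 had the highest level among the 12 ventral libraries for 3 of 3 smooth muscle members and 11 of 23 other smooth muscle genes (47.8%), against 7.99% of all 14116 genes tested. The 12 genes of medium spiny neurons, the projection neurons that define striatum, were counted in every library and summed to 6500 to 7760 CPM in dorsal libraries, but ventral saline replicate 6 had a sum of 293 CPM where the other 5 ventral saline libraries had 3190 to 4240 CPM. Genes of fibroblasts and meninges, which form the outer covering of brain and vessels, summed to 363 CPM in saline replicate 1 and 488 in saline replicate 6, against 84.3 to 114 in the other 4. In ventral oxycodone replicate 1 they summed to 189 CPM, against 78.4 to 128 CPM in the other ventral oxycodone libraries. That library had the lowest Abcc9, Pdgfrb and Rgs5 and the highest Acta2 and Tagln of its group. In ventral oxycodone replicate 6, choroid plexus genes were highest of the 12 libraries for 6 of 6 genes tested and medium spiny neuron genes for 10 of 12, with a neuron sum of 7650 CPM where the other 5 ventral oxycodone libraries had 3410 to 4260 CPM. Fold changes of the members that rest on them are given with and without them. Results of other listed genes, and counts of genes called, include them unless stated. Dorsal and ventral libraries also differed as sets, with mitochondrial genes at 2.93% to 4.12% of counts in dorsal and 5.98% to 9.25% in ventral libraries, and region and sequencing run cannot be told apart.

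**Figure D1:**
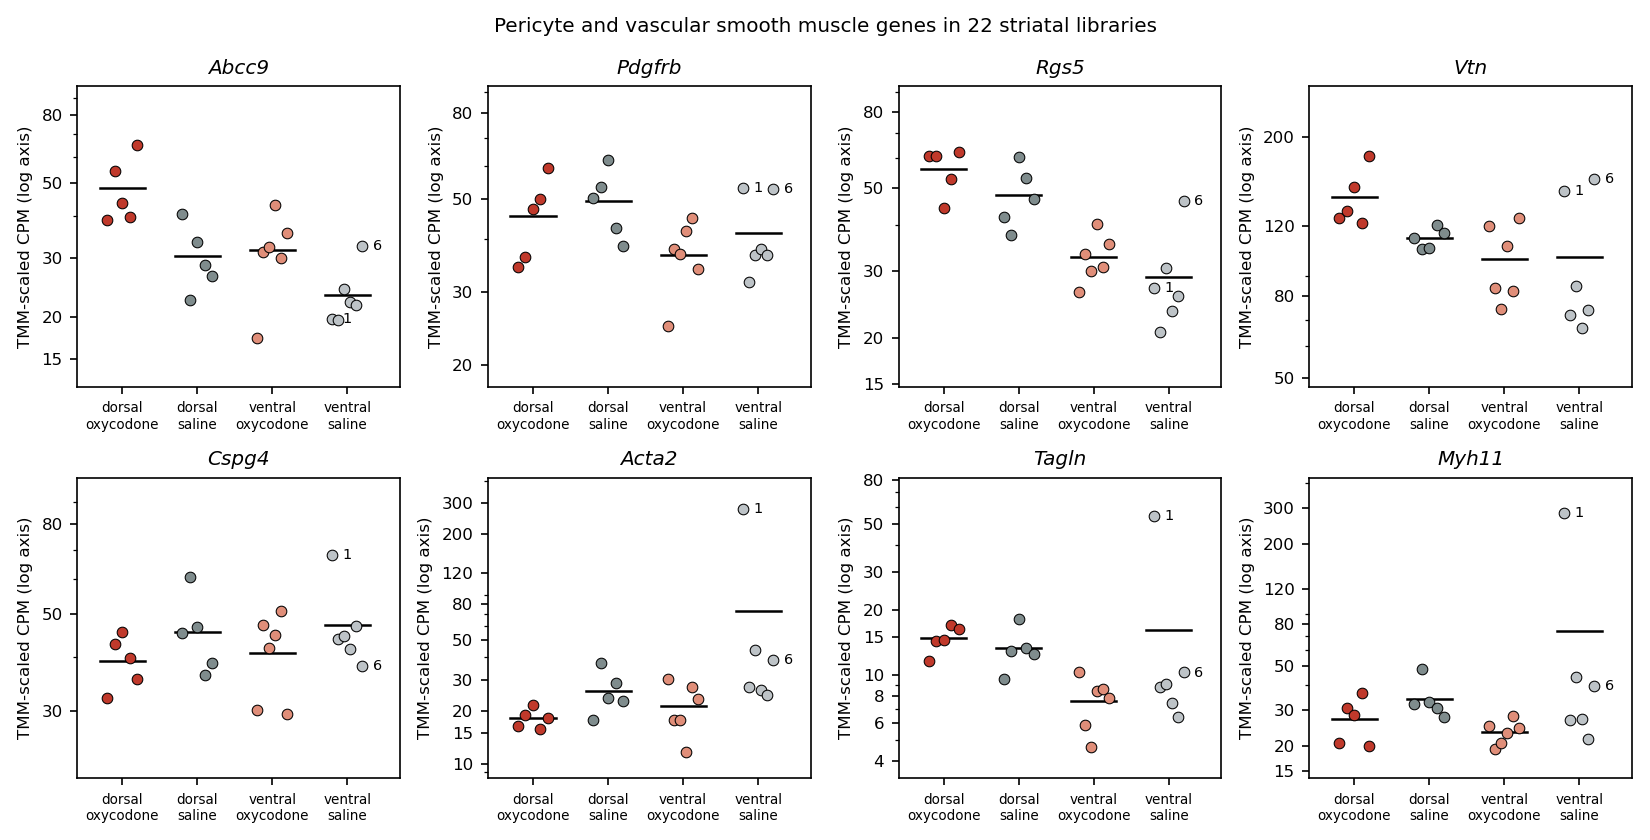
Level of each of the 8 genes in each of the 22 libraries, as TMM-scaled CPM on a log axis, with bars at the group means; each point is 1 library, and ventral saline replicates 1 and 6 are numbered. Acta2, Tagln and Myh11 stand at 278, 54.6 and 284 CPM in ventral saline replicate 1, while Vtn in dorsal striatum shows all 5 oxycodone libraries above all 5 saline libraries.

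The first comparison asked whether mural genes differ after oxycodone self-administration in dorsal striatum. None of the 8 passed the adjusted threshold of 0.05 in edgeR's quasi-likelihood test, where 0.206% of all 14595 genes did (0.199% higher and 0.00685% lower), 30 genes in all, and 823 had an unadjusted p under 0.05. Abcc9 came closest, with 1.6-fold the level of saline libraries, and stood at rank 43 of all genes by p. Vtn was 1.27-fold as high and its groups did not overlap. The contractile genes Acta2 and Myh11 had negative estimates, at 0.700 and 0.800 of the saline level. In bulk tissue, a difference in the number of cells of a type and a difference in RNA per cell cannot be told apart. Dorsal libraries also varied in choroid plexus genes, which summed to 83 to 3320 CPM in oxycodone and 382 to 3640 CPM in saline libraries. All 10 of these genes had negative estimates and none was called. Their part in the members' values was not tested.

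Abcc9 had 38.9, 54.4, 43.7, 39.7 and 65.0 CPM in the 5 dorsal oxycodone libraries, against 40.5, 22.4, 33.3, 28.6 and 26.5 CPM in the 5 dorsal saline libraries. A single saline library, replicate 1, reached into the oxycodone range, above its 2 lowest libraries. The estimate on the log2 scale was 0.68 (SE 0.16, 95% interval 0.35 to 1.01), and its adjusted p in edgeR, 0.0721, missed the threshold. Some other treatments of the same counts moved it across. The adjusted p was 0.0217 with DESeq2, 0.0483 with limma-voom with library quality weights (limma-voom hereafter) and 0.0316 in edgeR without the low count filter. Leaving out 1 library at a time gave log2 fold changes of 0.55 to 0.81 and edgeR adjusted p from 0.406 (without oxycodone replicate 5) to 0.0367 (without saline replicate 1). Summing the dorsal libraries that share a title number and treatment gave 0.65 and an adjusted p of 0.105. Among libraries whose titles carry the suffix P, a mark the labels do not explain, the log2 fold change was 0.68, and among those without it 0.66. Abcc9 was called in neither of these subsets. In edgeR it was also not called with median of ratios scaling, library totals, the suffix as covariate or a joint fit of all libraries.

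Vtn had 126, 131, 150, 122 and 179 CPM in dorsal oxycodone libraries, against 112, 105, 106, 121 and 115 CPM in dorsal saline libraries. The lowest oxycodone library stood above the highest saline library, though oxycodone replicate 4 and saline replicate 4 were only 122 and 121 CPM. Such a complete separation in the same direction was found for 0.843% of all genes tested. The log2 fold change of Vtn was 0.34 (SE 0.10, edgeR adjusted p 0.213), and it ranged from 0.24 to 0.39 with 1 library left out. Endothelial genes, which mark the vessel lining, summed to 1410 to 1960 CPM in dorsal oxycodone and 1320 to 1450 CPM in dorsal saline libraries over 28 genes, and 2 of the 28 (Slc2a1 and Ly6a) were called higher. Blood genes, chiefly haemoglobins, summed to 597 to 1790 CPM in dorsal oxycodone and 411 to 631 CPM in dorsal saline libraries. All 6 blood genes tested had positive estimates and 1 was called, Alas2, a haem synthesis enzyme of red cells, at 1.69-fold (edgeR adjusted p 0.0197). Oxycodone replicate 5 held the top of both sums, at 1960 and 1790 CPM, where the next highest oxycodone libraries had 1650 and 1260 CPM. It also had the highest Vtn, Abcc9 and Pdgfrb of its group. Without it the log2 fold change of Vtn was 0.24. The part of endothelial or blood genes in the Abcc9 and Vtn values was not tested.

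Of the remaining pericyte members, Rgs5 averaged 56.3 ± 7.73 CPM in dorsal oxycodone and 48.0 ± 9.12 CPM in dorsal saline libraries (SD, n = 5 each), with 3 of 5 oxycodone libraries above the saline range. Its log2 fold change of 0.23 (SE 0.13) was 0.54 in libraries without the title suffix and −0.10 in those with it. Pdgfrb, the receptor that receives the endothelial signal, averaged 45.4 ± 10.2 CPM after oxycodone and 49.3 ± 9.19 CPM after saline, with a 95% interval of −0.42 to 0.18 for the log2 fold change. Cspg4 averaged 39.1 ± 5.32 CPM after oxycodone and 45.5 ± 9.54 CPM after saline, with an interval of −0.50 to 0.07. The pericyte members thus did not share a direction: 3 had positive and 2 negative estimates, with a median of 0.23 against −0.01 over all genes.

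Acta2 had 16.3, 19.0, 21.6, 15.8 and 18.1 CPM in dorsal oxycodone libraries, against 17.7, 37.3, 23.7, 28.6 and 22.6 CPM in dorsal saline libraries. The 5 oxycodone libraries were close together, and 4 of the 5 saline libraries lay above them all. The log2 fold change was −0.51 (SE 0.18, edgeR adjusted p 0.501), running from −0.62 to −0.35 with 1 library left out. Myh11 averaged 27.4 ± 6.93 CPM after oxycodone and 34.3 ± 7.87 CPM after saline (SD, n = 5 each), with a log2 fold change of −0.32 and SE 0.17. Saline replicate 2, the highest dorsal library for both genes, also had 187 CPM of fibroblast and meningeal genes, against 92.8 to 112 CPM in the other 4 dorsal saline libraries; without it the log2 fold changes were −0.35 for Acta2 and −0.17 for Myh11. Tagln, the third contractile gene, averaged 14.8 ± 2.05 CPM after oxycodone and 13.3 ± 3.07 CPM after saline, with an estimate of 0.15 (SE 0.21). None of the 23 other smooth muscle genes tested was called. Tpm1, a tropomyosin that many cell types use, had the lowest p among them, with 303 ± 35.4 CPM after oxycodone and 359 ± 25.7 CPM after saline and an edgeR adjusted p of 0.402.

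Other pericyte genes and the signals that recruit mural cells gave no calls in dorsal striatum either. Of 28 other pericyte genes, 15 had positive and 13 negative estimates, with a median of 0.03. Kcnj8, which encodes the Kir6.1 pore that joins SUR2 in the pericyte potassium channel, averaged 11.7 ± 4.68 CPM after oxycodone and 9.11 ± 3.84 CPM after saline, with a log2 fold change of 0.36 (SE 0.30; edgeR adjusted p 0.998). Its range of 4.89 to 17.1 CPM in oxycodone libraries covered that of the saline libraries, 6.33 to 15.6. Ifitm1 (6.71 ± 1.82 CPM after oxycodone and 3.24 ± 1.30 CPM after saline) and the collagen-binding integrin chain Itga1 (32.3 ± 7.96 CPM after oxycodone and 23.1 ± 4.54 CPM after saline) had the lowest p of the list, with edgeR adjusted p of 0.468 and 0.513. Of 30 genes of PDGF and mural recruitment signalling, Tgfbr2, a TGF-β receptor, was at 1.43-fold the saline level and did not pass (edgeR adjusted p 0.367). Pdgfb, the ligand of PDGFRβ, averaged 7.85 ± 1.16 CPM after oxycodone and 8.51 ± 3.92 CPM after saline.

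**Figure D2:**
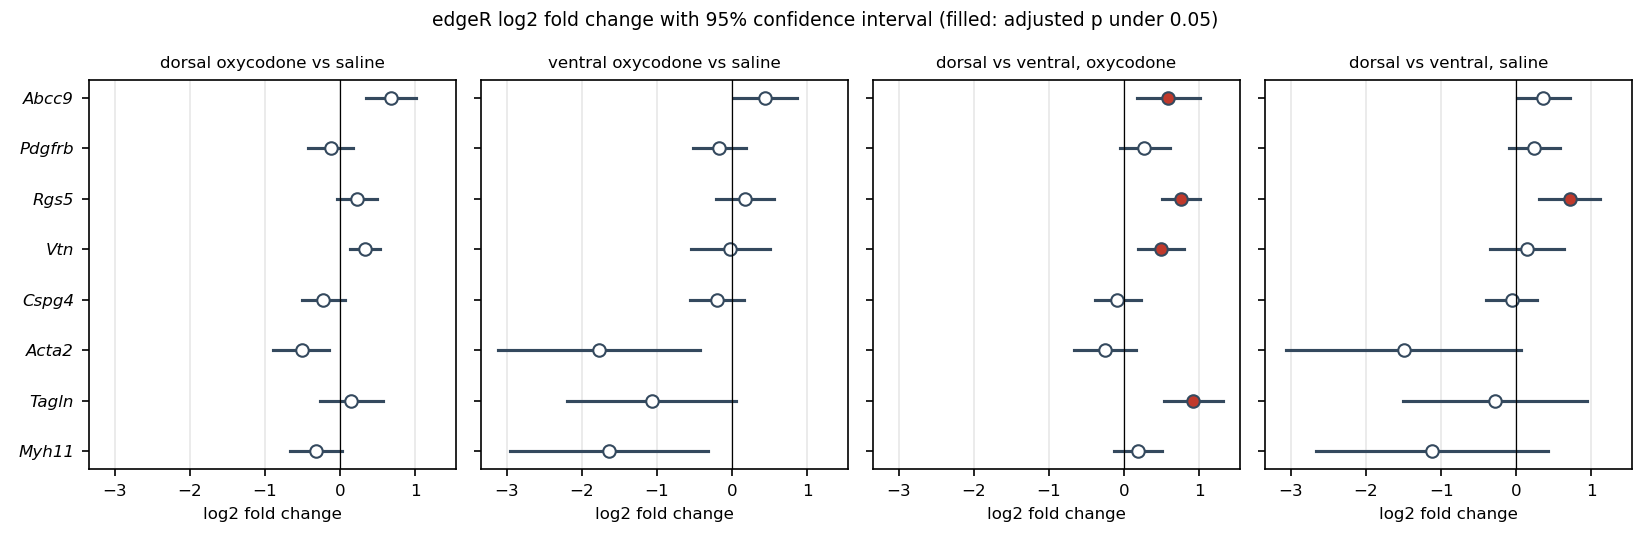
Log2 fold change of each gene with its 95% confidence interval in 4 comparisons, the first named group over the second; filled points passed an adjusted p of 0.05 in edgeR. Filled points stand at positive values only, for Abcc9, Rgs5, Vtn and Tagln among oxycodone libraries and for Rgs5 among saline libraries, and the widest intervals are those of Acta2, Tagln and Myh11 where ventral saline libraries enter.

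The same comparison in ventral striatum gave the lowest estimates among the members for the 3 smooth muscle genes. The size of these estimates rested largely on 1 saline library. Called genes were 0% of the 14116 genes tested by edgeR (1289 had an unadjusted p under 0.05), so none of the 8 members was called, and none separated the treatments completely, where 0.312% of genes did so upward and 0.446% downward. DESeq2 called 38 genes and limma-voom 61, with no member among them, although DESeq2 gave no adjusted p for Acta2, Tagln and Myh11. Acta2 had 11.6, 20.4 and 30.4 CPM as lowest, median and highest of the 6 oxycodone libraries, against 24.5, 33.0 and 278 CPM in the 6 saline libraries. Myh11 had 19.4, 23.9 and 28.3 CPM in oxycodone libraries, against 21.8, 33.4 and 284 CPM in saline libraries. Tagln had 4.68, 8.17 and 10.3 CPM in oxycodone libraries, against 6.41, 8.96 and 54.6 CPM in saline libraries. In all 3 the highest saline value came from replicate 1, and the groups overlapped. Of the 6 oxycodone libraries, 4 lay below all saline libraries for Acta2, and 2 each for Tagln and Myh11.

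The log2 fold changes over all 12 ventral libraries were −1.77 for Acta2 (SE 0.62), −1.64 for Myh11 (SE 0.61) and −1.07 for Tagln (SE 0.52), with edgeR adjusted p of 0.482, 0.487 and 0.570. Without saline replicate 1 they were −0.59, −0.42 and −0.13. Sequencing lanes were evenly split between treatments, and lane 1, which holds that library, gave −2.28 for Acta2, −2.11 for Myh11 and −1.44 for Tagln, while lane 2 alone gave −0.32, −0.21 and −0.01. Over the median of saline replicates 2 to 5, saline replicate 1 had 10.4-fold the level of Acta2, 10.5-fold of Myh11 and 6.71-fold of Tagln. The 23 other smooth muscle genes tested had a median of 1.82-fold over the other 11 ventral libraries there and spread widely. Against saline replicates 2 to 5, Tpm2 (a tropomyosin) stood at 6.11-fold, Myl9 (a myosin light chain) at 5.19-fold and Mylk (the kinase of that chain) at 4.96-fold. Fhl2 stood at 0.535-fold, Ppp1r14a at 0.880-fold, Srf (serum response factor) at 0.910-fold and Tpm1 at 1.17-fold. Cnn1 (calponin) stood at 17.3-fold and Myocd (myocardin, a coactivator of serum response factor) at 7.6-fold. These 2 genes were too low in most ventral libraries to be among the 23 tested. Their medians in saline replicates 2 to 5 were 0.859 and 0.648 CPM, so their folds are uncertain.

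Acta2 and Myh11 kept nearly the same ratio to each other in that library as in its group, from 0.960 to 1.12 over the 6 ventral saline libraries, against 0.497 to 1.21 over the 6 ventral oxycodone libraries. The pericyte members were divided there: Abcc9 was 0.902-fold and Rgs5 1.10-fold the median of saline replicates 2 to 5 in replicate 1, within the range of those 4 libraries, while Pdgfrb at 1.45-fold, Cspg4 at 1.54-fold and Vtn at 2.02-fold stood above it. Of the 5, 2 were highest of the 12 ventral libraries in replicate 1. Endothelial genes were highest in saline replicate 1 for 0 of 28 genes, and summed to 1370 CPM there and 1970 CPM in saline replicate 6, against 1040 to 1240 CPM in the other 4 saline libraries. Fibroblast and meningeal genes, with a median of 4.9-fold over the other 11 ventral libraries, moved with the smooth muscle genes there. In saline replicate 6 the fibroblast and meningeal genes had a median of 4.41-fold over the other 11 ventral libraries, and Acta2, Tagln and Myh11 stood at 1.45-fold, 1.26-fold and 1.46-fold the median of saline replicates 2 to 5, and Rgs5 and Vtn at 1.87-fold and 2.16-fold. Which tissue these libraries contain beyond striatum was not tested.

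**Figure D3:**
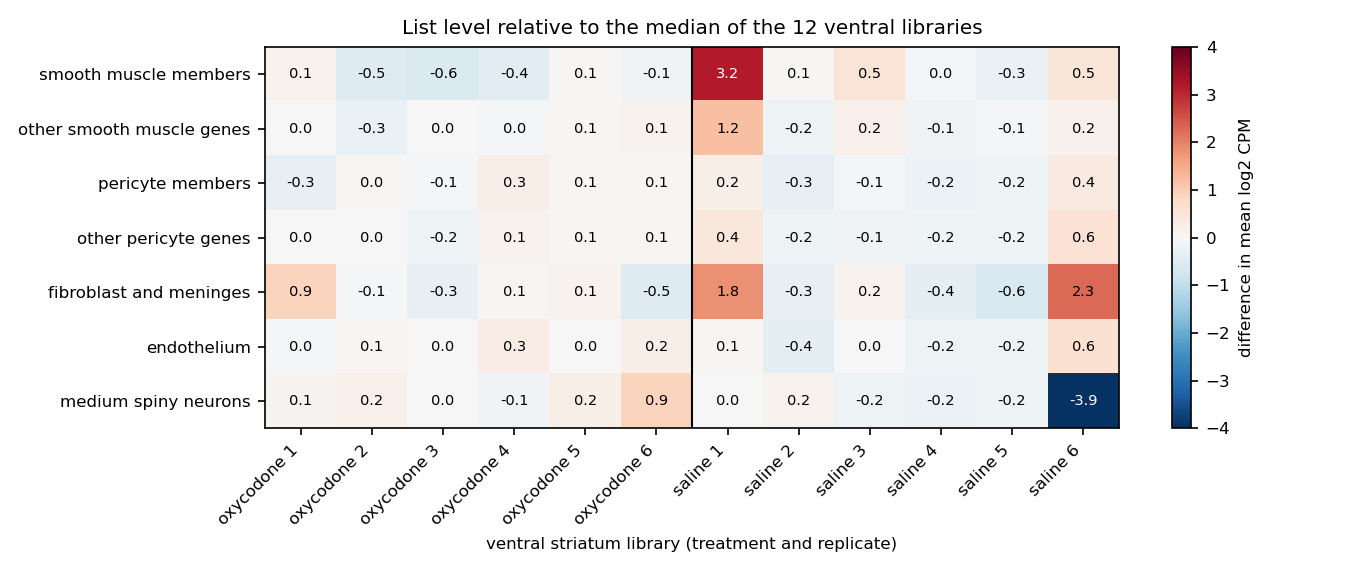
Mean log2 CPM of 7 gene lists in each of the 12 ventral libraries, as the difference from the median of the 12, with oxycodone libraries left of the line and saline libraries right of it. Smooth muscle members are raised in saline 1, fibroblast and meningeal genes in saline 1 and saline 6, and medium spiny neuron genes are low in saline 6.

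**Figure D4:**
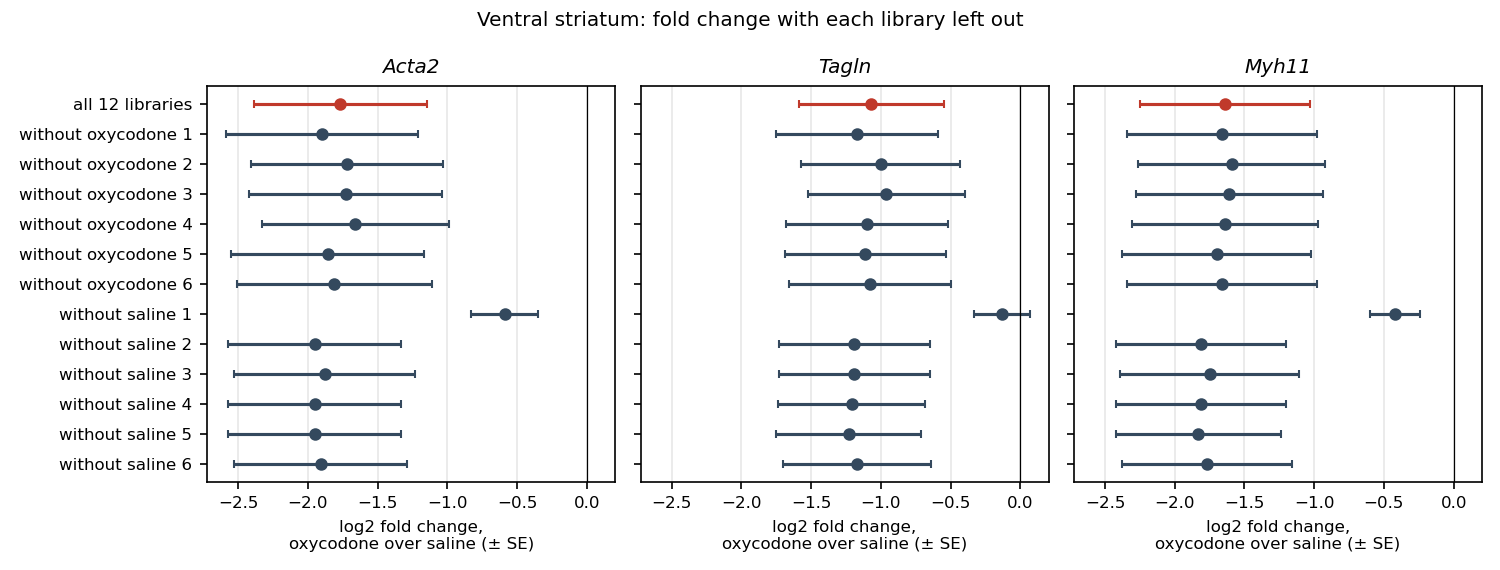
Log2 fold change of Acta2, Tagln and Myh11 in ventral striatum, oxycodone over saline, with its SE, over all 12 libraries (red) and with each library left out (dark). All points stay near −1.77, −1.07 and −1.64 except without saline 1, where they are −0.59, −0.13 and −0.42.

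Abcc9 had the largest positive estimate among the members in ventral striatum as well. It had 17.3, 31.7 and 43.0 CPM as lowest, median and highest of the ventral oxycodone libraries, against 19.5, 21.9 and 32.6 CPM in the ventral saline libraries. The lowest value of all 12 belonged to an oxycodone library (replicate 1), and the highest saline value to replicate 6. The log2 fold change was 0.44 (SE 0.19, edgeR adjusted p 0.526), and with 1 library left out it ran from 0.33 to 0.57. It was 0.53 in lane 1 and 0.28 in lane 2. Kcnj8, its channel partner, averaged 7.18 ± 2.26 CPM after oxycodone and 4.93 ± 0.903 CPM after saline (SD, n = 6 each), with a log2 fold change of 0.55 (SE 0.22; edgeR adjusted p 0.509).

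Rgs5 averaged 32.8 ± 4.80 CPM in ventral oxycodone and 29.0 ± 9.08 CPM in ventral saline libraries, Pdgfrb 36.8 ± 7.03 CPM after oxycodone and 41.5 ± 9.12 CPM after saline, and Cspg4 40.8 ± 8.92 CPM after oxycodone and 47.2 ± 10.7 CPM after saline (SD, n = 6 each). The 95% intervals of their log2 fold changes were −0.21 to 0.56, −0.52 to 0.19 and −0.56 to 0.16. Vtn averaged 98.9 ± 21.5 CPM after oxycodone and 100 ± 40.9 CPM after saline, and its estimate of −0.02 turned to 0.34 without saline replicate 1 and both sixth libraries. None of the 28 other pericyte genes, 23 other smooth muscle genes or 30 recruitment genes tested was called. Angpt1, the angiopoietin that mural cells supply to endothelium, had the lowest p of the recruitment list, with 4.37 ± 1.24 CPM after oxycodone and 7.13 ± 2.4 CPM after saline and an edgeR adjusted p of 0.477.

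Set against Pdgfrb in the same library, Abcc9 separated the treatments further than it did alone. The ratio of their CPM, which is not scaled to length and is read only between libraries, was 0.796, 1.10 and 1.5 (lowest, median and highest) in dorsal oxycodone libraries, against 0.419, 0.670 and 0.807 in dorsal saline libraries. In ventral striatum it was 0.664, 0.847 and 1.05 in oxycodone libraries, against 0.371, 0.602 and 0.659 in saline libraries. The ventral groups did not overlap, and the dorsal ones overlapped in 1 library of each group. Of all genes to which Abcc9 could be set in ratio, 0.701% of 13696 gave such a separation in ventral and 17% of 13999 in dorsal striatum. This pair was chosen after its values had been seen, so no test is given, and the ratio shows only that the 2 genes differed unequally. Set against Kcnj8, Abcc9 had ratios of 2.92 to 7.97 in dorsal oxycodone, 1.43 to 5.26 in dorsal saline, 3.86 to 4.87 in ventral oxycodone and 3.59 to 6.21 in ventral saline libraries, all overlapping.

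Whether the treatment effect differed between regions was tested directly over all 22 libraries. No gene passed in edgeR (0% of 14938, 674 with an unadjusted p under 0.05), and neither DESeq2 nor limma-voom called any, each giving 0 genes. For Abcc9 the dorsal minus ventral difference in log2 fold change was 0.24, with a 95% interval of −0.31 to 0.80. For Acta2, Tagln and Myh11 it was 1.26, 1.22 and 1.32, and without ventral saline replicate 1 it was 0.06, 0.27 and 0.09.

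Between regions, Rgs5 was higher in dorsal than in ventral striatum under both treatments, and Tagln, Vtn and Abcc9 were higher among oxycodone libraries. Among oxycodone libraries 4 of the 8 members were called, all higher in dorsal striatum, where 47.2% of 14375 genes were called, 23.5% higher and 23.7% lower. Among saline libraries 1 of 8 was called, where 45.8% of 14433 genes were called, 23.6% higher and 22.3% lower. Counted in either direction, the first share of members is near its background and the second below it. Counted as higher calls alone, the 4 of 8 stand beside 23.5% of all genes and the 1 of 8 beside 23.6%. The oxycodone and saline comparisons share no library. Genes of the choroid plexus, the secretory tissue of the ventricles, also differed by region: the 10 genes summed to 83 to 3320 CPM in dorsal oxycodone and 382 to 3640 CPM in dorsal saline libraries, against 37.9 to 77.3 CPM in ventral oxycodone replicates 1 to 5, 1830 CPM in ventral oxycodone replicate 6 and 22.9 to 58.8 CPM in ventral saline libraries. Their part in the members' differences was not tested.

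Rgs5 had 61.0, 60.9, 44.2, 52.9 and 62.4 CPM in the 5 dorsal oxycodone libraries, against 26.5, 32.1 and 40.2 CPM as lowest, median and highest of the 6 ventral oxycodone libraries. The groups did not overlap, which was so in this direction for 15.1% of genes, and the log2 fold change was 0.76 (SE 0.12, edgeR adjusted p 7.18e-05). Among saline libraries Rgs5 had 41.9, 37.6, 60.6, 53.2 and 46.8 CPM in dorsal, against 20.7, 26.4 and 46.3 CPM in ventral libraries. Only ventral saline replicate 6 reached the dorsal range, and the log2 fold change was 0.72 (SE 0.19, edgeR adjusted p 0.00638). With any 1 of the 11 libraries left out, Rgs5 stayed called in each comparison, at 0.72 to 0.83 among oxycodone and 0.62 to 0.92 among saline libraries.

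Of the 3 smooth muscle members, Tagln was called between regions, and only among oxycodone libraries when all libraries were kept. It had 11.7, 14.4, 14.6, 17.0 and 16.3 CPM in dorsal oxycodone libraries, against 4.68, 8.17 and 10.3 CPM as lowest, median and highest in ventral oxycodone libraries, without overlap. The log2 fold change was 0.92 with SE 0.19, a 1.9-fold difference with an edgeR adjusted p of 7e-04. Among saline libraries the estimate was −0.28 with all libraries and 0.66, with an adjusted p of 0.0167, without ventral saline replicate 1. Acta2 and Myh11 did not differ detectably between dorsal and ventral oxycodone libraries, with 95% intervals of −0.67 to 0.16 and −0.14 to 0.51. Their estimates among saline libraries, −1.5 and −1.12, were −0.31 and 0.10 without ventral saline replicate 1.

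Vtn averaged 142 ± 23.4 CPM in dorsal and 98.9 ± 21.5 CPM in ventral oxycodone libraries (SD, n = 5 and 6), and the log2 fold change was 0.49 (SE 0.14, edgeR adjusted p 0.0112). Abcc9 averaged 48.3 ± 11.2 CPM in dorsal and 31.6 ± 8.42 CPM in ventral oxycodone libraries, with a log2 fold change of 0.59 (SE 0.19) and an adjusted p of 0.0220 in edgeR, which was 0.0509 without dorsal oxycodone replicate 5. Among saline libraries the log2 fold changes of Vtn and Abcc9 were 0.15 and 0.36, with edgeR adjusted p of 0.634 and 0.0897. Without ventral saline replicate 1 and both sixth ventral libraries, 6819 of 14462 genes and 5 of the 8 members were called, these 5 higher in dorsal saline striatum by log2 fold change: Rgs5 at 0.93, Tagln at 0.74, Vtn at 0.58, and Abcc9 and Pdgfrb at 0.46 each. Cspg4 was not called in either comparison, with 95% intervals of −0.39 to 0.22 among oxycodone and −0.40 to 0.28 among saline libraries. Of 17 genes of oligodendrocyte precursors, which also carry NG2, 2 were called higher and 8 lower in dorsal oxycodone libraries. Among all genes 23.5% were called higher and 23.7% lower there. In dorsal saline libraries 4 of the 17 were called higher and 8 lower, where 23.6% and 22.3% of all genes were.

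Calls between regions among the other pericyte genes went in both directions. Among oxycodone libraries 6 of 28 were called higher and 2 lower in dorsal striatum. There 47.2% of all genes were called, 23.5% higher and 23.7% lower, so the share called higher was near that of all genes. The median log2 fold change was 0.26 against −0.01 over all genes. Among saline libraries 3 were called higher and 2 lower, where 45.8% of all genes were called, 23.6% higher and 22.3% lower. Higd1b, which marks brain pericytes, averaged 5.34 ± 1.30 CPM in dorsal and 2.25 ± 0.385 CPM in ventral oxycodone libraries. It averaged 3.93 ± 1.90 CPM in dorsal and 1.70 ± 0.370 CPM in ventral saline libraries. Slc19a1, the reduced folate carrier, was 2.0-fold higher in dorsal striatum among oxycodone and 1.88-fold among saline libraries, with edgeR adjusted p of 4.48e-05 and 0.00173. Kcnj8 was 1.83-fold higher among saline libraries (adjusted p 0.0128) and 1.59-fold among oxycodone libraries, where its adjusted p was 0.0744.

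Genes lower in dorsal saline libraries were Anpep, which encodes aminopeptidase N, and Tbx18, a transcription factor of mural cells and fibroblasts. Anpep averaged 1.37 ± 0.735 CPM in dorsal and 6.51 ± 5.16 CPM in ventral saline libraries (SD, n = 5 and 6), and Tbx18 1.39 ± 0.282 CPM in dorsal and 3.64 ± 2.95 CPM in ventral saline libraries. In ventral saline replicates 1 and 6 Anpep stood at 3.12-fold and 4.55-fold, and Tbx18 at 3.12-fold and 4.36-fold, the median of the other 4, the libraries in which fibroblast and meningeal genes were high. The part of those cells was not tested. Among the 23 other smooth muscle genes tested, 3 were called higher and 6 lower in dorsal oxycodone libraries, and 5 higher and 8 lower in dorsal saline libraries, beside 47.2% and 45.8% of all genes called. Lower among oxycodone libraries were Itga8 (an integrin chain, 0.426-fold), Mrtfb (a coactivator of serum response factor, 0.557-fold), Smtn (smoothelin, 0.612-fold), Mrtfa (0.663-fold), Cald1 (caldesmon, 0.697-fold) and Ppp1r12b (0.828-fold). Myl9 was 1.33-fold higher among oxycodone libraries (edgeR adjusted p 0.0182). Csrp1 and Tpm1, which the list holds but many other cells express, were among those higher in dorsal saline libraries, at 2.02-fold and 1.61-fold.

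Of the 30 recruitment genes, 5 were called higher and 3 lower in dorsal oxycodone libraries, and 5 higher and 5 lower in dorsal saline libraries, both below the 47.2% and 45.8% of all genes called. Acvrl1, the ALK1 receptor of the TGF-β family, averaged 50.6 ± 9.71 CPM in dorsal and 18.8 ± 13.4 CPM in ventral oxycodone libraries, and 56.2 ± 8.82 CPM in dorsal and 11.7 ± 4.19 CPM in ventral saline libraries. Angpt1 was lower in dorsal striatum, with 1.49 ± 0.638 CPM in dorsal and 4.37 ± 1.24 CPM in ventral oxycodone libraries, and 2.02 ± 0.573 CPM in dorsal and 7.13 ± 2.4 CPM in ventral saline libraries. Pdgfb was not called, at 0.927-fold among oxycodone and 0.994-fold among saline libraries (edgeR adjusted p 0.620 and 0.985). Endothelial genes were called higher for 12 and lower for 5 of 28 among oxycodone libraries, and for 11 and 3 among saline libraries, where 23.5% and 23.6% of all genes were called higher and 23.7% and 22.3% lower, and the part of a difference in vessel content was not tested.

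From library to library within the groups, 3 pairs of members in ventral striatum and none in dorsal striatum passed on Pearson's r. All 28 pairs were correlated in each region on log2 CPM centred on the group means, with permutation p-values adjusted over the 56 pairs. Where r is given without 2 libraries, the group means were not recomputed. The libraries left out thus still shifted the others of their group together, which can raise such an r. In the 12 ventral libraries Abcc9 and Rgs5 had Pearson's r of 0.79 and Spearman's rho of 0.86 (permutation adjusted p 0.0109 and 0.0482), and r was 0.83 without the 2 libraries farthest from the median of Abcc9. Tagln and Myh11 had r of 0.96 and rho of 0.87 (adjusted p 0.0109 and 0.0493), and r was 0.80 without oxycodone replicate 1 and saline replicate 1. Acta2 and Myh11 had r of 0.95 and rho of 0.82 (adjusted p 0.0259 and 0.0877), and r was likewise 0.80 without those libraries. Acta2 and Tagln had r of 0.92 and rho of 0.72 (adjusted p 0.131 and 0.154), and r was 0.52 without them. Scaling and depth are common to all genes of a library.

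In the 10 dorsal libraries no pair passed the adjusted threshold. The highest r was that of Cspg4 and Myh11, at 0.80 with rho of 0.81 (permutation adjusted p 0.131 and 0.121), and r was 0.73 without the 2 libraries farthest from the median of Cspg4. The 3 smooth muscle pairs had r of 0.21 to 0.41. Abcc9 and Rgs5 had r of 0.36 there. The difference in r between regions was not tested.

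**Figure D5:**
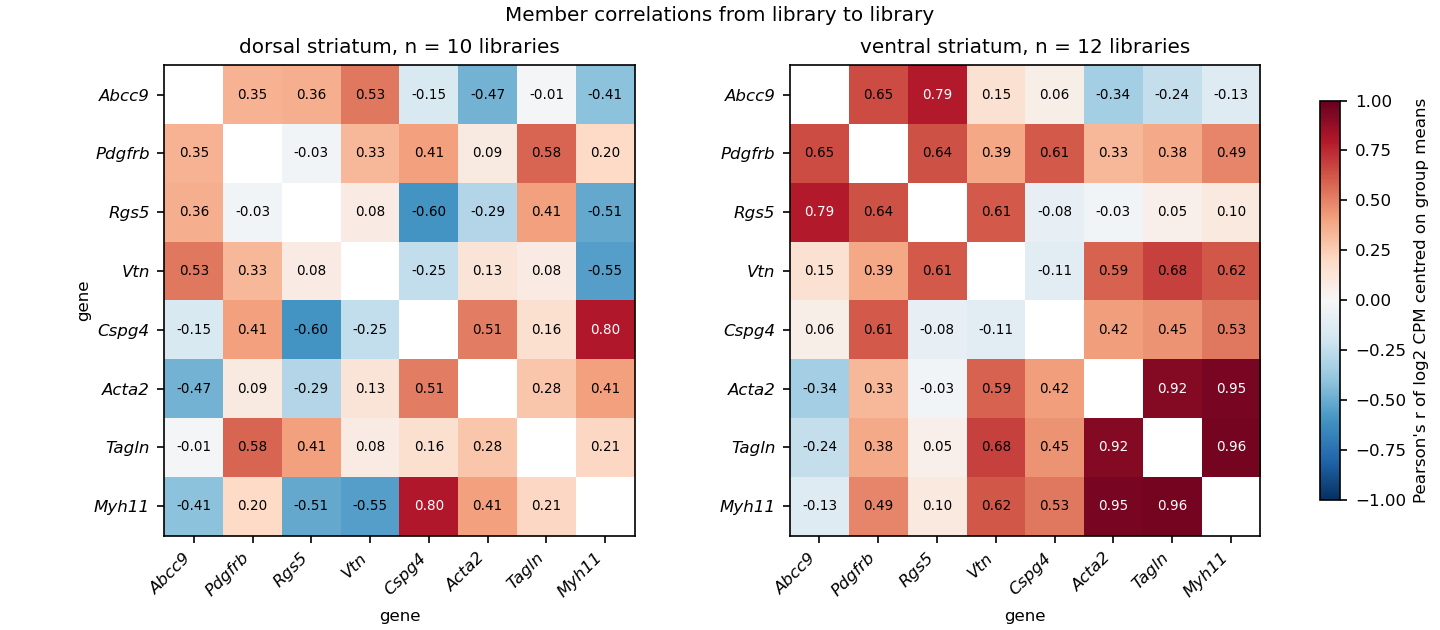
Pearson's r between each pair of the 8 genes over the libraries of each region, on log2 CPM centred on the group means, on a scale from blue (negative) to red (positive). Ventral smooth muscle pairs reach 0.92 to 0.96, and dorsal ones lie between 0.21 and 0.41. Without the 2 farthest libraries, and with group means not recomputed, the ventral pairs are at 0.52 to 0.80.

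Genes outside the list were ranked by how closely they followed the members over the 22 libraries centred on their group means, among 13749 genes. For the mean of the 3 smooth muscle members the closest were Flna (r = 0.90), which encodes the actin cross-linker filamin A, Myl9, Mylk and Myom1 (each 0.88), Tpm2 (0.87), Lmod1 (0.83), Timp3 (0.79) and Mrvi1 (0.76). Without ventral saline replicate 1 these values were 0.37 (Timp3) to 0.71 (Myl9 and Tpm2). Group means were not recomputed for values without that library, here and for the pericyte members. For the mean of the 5 pericyte members they were Tbc1d14 (0.91), C1ra and Vwf (0.89 each), Vim (0.87), Fn1 and Iqgap1 (0.86 each), Pirb (0.85) and Sorbs2 (0.84), and r was 0.85 to 0.90 without that library. Vwf encodes von Willebrand factor of the endothelium and Fn1 fibronectin of the vessel matrix. The mean log2 CPM of the pericyte members was highest of the ventral libraries in saline replicate 6, at 5.77. Vwf had 248 CPM there, against 49.9 to 66.0 CPM in saline replicates 2 to 5. That library was kept in throughout, and r without it was not computed. These values describe likeness across libraries and carry no test.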

How the data were processed

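Total RNA of dorsal and ventral striatum was sequenced from kits that remove ribosomal RNA and keep strand, per the labels' protocols. The authors deposited raw read counts per Ensembl gene in 22 libraries. CASAVA 1.8.2, STAR 2.3 and featureCounts (no version) are named in the submitters' processing notes, with the builds mm10, GRCm38 and mm9 and no role for each. Whole-number counts were used as deposited, and 0 value columns were left without a sample. GENCODE M21 gave symbols for 22205 of 23119 identifiers (96.0%). Within a group, no pair of libraries was as alike as repeats of 1 library.

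The edgeR 4.0.16 quasi-likelihood test (R 4.3.3, robust, TMM scaling, filterByExpr) was fitted on all genes, with Benjamini-Hochberg adjustment and a threshold of 0.05, two-sided. CPM are counts over the TMM-scaled library size. Correlations used 100000 permutations within groups. The fits were tested on simulated data. Alternatives were other scalings, no filter, DESeq2 1.42.0, limma-voom with library quality weights (limma 3.58.1), lane and title suffix, summed title numbers, a title number block, and each library left out; leaving out 3 ventral libraries together, and the unblocked fit on the block's libraries, were chosen after seeing the data. Members and gene lists (12 lists, 197 genes, 195 in the table) were chosen with earlier results of these data known. Genes were named from a list if they were called or among its 3 lowest p-values in a comparison, and some of these are printed; Kcnj8, Pdgfb, the genes compared within ventral saline replicate 1 and the Abcc9 ratios were chosen after their values were seen.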

Additional observations from a re-analysis of the deposited data

Results flagged for a closer look

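Each member was checked in each of the 4 groups for a library far from the rest of its group, by the gap to the nearest library as a share of the group's range. Of 32 such checks, 6 singled out a library, where chance gives about 1 in 20 for a single check on normally distributed values. The checks used CPM without a log scale and reuse the same libraries for genes that vary together. The 6 are therefore not separate departures, and their number cannot be held against that rate.

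Ventral saline replicate 1 was singled out for Acta2 at 278 CPM, Myh11 at 284 CPM, Tagln at 54.6 CPM and Cspg4 at 68.1 CPM. The first 3 encode contractile proteins and stood 10.4-fold, 10.5-fold and 6.71-fold over the median of saline replicates 2 to 5, while Cspg4 stood at 1.54-fold. Ventral saline replicate 6, the library low in medium spiny neuron genes, was singled out for Abcc9 at 32.6 CPM, where replicates 1 to 5 had 19.5 to 24.2 CPM. Dorsal saline replicate 2 was singled out for Myh11 at 47.9 CPM, and it also had the highest Acta2 (37.3 CPM) and Cspg4 (60.7 CPM) of the dorsal saline libraries. Fibroblast and meningeal genes summed to 187 CPM in it, against 92.8 to 112 CPM in the other 4.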

How the results depend on the processing

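Of 376 member values under other settings, leaving out single libraries apart, 341 kept direction and side of the threshold, 12 became called, 1 lost its call and 22 changed sign, of which 1 (Tagln) also became called. With 1 library left out these were 492, 3, 1 and 32 of 528, again with 1 of the sign changes (Tagln) also called. The causes were not tested beyond the library left out.

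In dorsal oxycodone against saline, genes called were 86 with DESeq2, 5 with all libraries in one fit, 1 in titles with suffix P, 17 in titles without it, and 1 to 63 with 1 library left out; members called were 1 (Abcc9) without a filter, with DESeq2 and with limma-voom, and 0 to 1 with 1 library left out. Without saline replicate 5, 1 gene was called, and without oxycodone replicate 3, 63. Rgs5 was −0.10 in titles with suffix P. In ventral striatum 38 genes were called with DESeq2 and 61 with limma-voom, and none of the 8 members.

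Ventral changes of sign were Pdgfrb 0.02 with limma-voom and 0.07 without ventral saline 1 and both sixth libraries; Vtn 0.13 with limma-voom, 0.07 without both sixth libraries, 0.34 without the 3 libraries, 0.05 in lane 1 and −0.11 to 0.16 with 1 library left out; and Rgs5 −0.11 in lane 2.

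In dorsal against ventral saline, members called were 3 with limma-voom, 2 without both sixth libraries, 5 without the 3 libraries and 1 to 2 with 1 library left out (Tagln added without ventral saline 1, Abcc9 without ventral saline 6 or dorsal saline 2). Tagln changed to 0.47 with limma-voom and 0.74 without the 3 libraries, Cspg4 to 0.03 and Myh11 to 0.19 without them. With 1 library left out Tagln ran from −0.44 to 0.66, Cspg4 from −0.19 to 0.08 and Myh11 from −1.30 to 0.10, and among oxycodone libraries Cspg4 from −0.14 to 0.02. For the difference between regions, Cspg4 was 0.01 with library totals and 0.02 with limma-voom; Pdgfrb −0.03 with limma-voom, −0.07 without both sixth and −0.19 without the 3 libraries; Rgs5 −0.18, −0.12 and −0.14; Vtn 0.00 without the 3 libraries. Their ranges with 1 library left out were −0.16 to 0.12 (Cspg4), −0.06 to 0.15 (Pdgfrb) and −0.13 to 0.15 (Rgs5).

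Title numbers shared by dorsal and ventral libraries gave correlations of −0.11 to 0.38 across genes. Of 10 dorsal libraries, 1 correlated best with its own number. Libraries of different regions of the same mouse need not correlate, so these values cannot decide whether a shared number marks the same mice. The labels do not explain the numbers. With the title number as replicate block, 5861 genes and 2 members were called among saline libraries (6484 and 2 unblocked on the same libraries), with Tagln at 0.05. Among oxycodone libraries 6657 genes and 5 members were called (6391 and 3 unblocked).

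Library depth limits Tagln most, with 42 counts in its lowest library. The 2 dorsal pairs that share a title number and treatment were kept as separate libraries. DESeq2 gave no adjusted p for Acta2, Tagln and Myh11 where ventral saline libraries enter.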
